A study of Mus musculus with 3 samples.

Results

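The cells described here are Fcrls Olfml3 Cxcr4 macrophages, a set of cells in mouse hearts at day 11 after myocardial infarction. They were selected on measured RNA. Among cells of the day 11 library with at least 500 genes and at most 10% mitochondrial unique molecular identifiers (UMIs, each standing for 1 captured RNA molecule), a member had a UMI of at least 4 of the 5 genes Fcrls, Olfml3, Rapsn, Cxcr4 and Rgs1. It also had fewer than 3 UMIs of Gpnmb, fewer than 3 of Saa3, none of Arg1, and fewer than 4 of the 5 genes Cxcr3, Cd72, F11r, Tmem119 and Sh2d1b1 detected. These conditions are called the limits. They gave 308 members of 4673 filtered day 11 cells, 6.59% (exact Clopper-Pearson 95% interval 5.90 to 7.34), and the series holds 8207 filtered cells in all.

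Single-cell RNA was counted by the 10x Chromium droplet method, version v2, in 3 libraries, 1 for each group. The day 11 library held macrophages of infarcted hearts and the steady state library held macrophages of uninjured hearts. Both came from C57BL/6 mice of genotype Cx3cr1CreER-YFP/+:R26Td/+, aged 8 to 12 weeks. The macrophage and DC library held steady state macrophages and dendritic cells of wild-type C57BL/6 mice of the same age. Per the labels' protocols, macrophages were sorted as live cells positive for CD45, CD64 and CD11b, and dendritic cells as live cells positive for CD45 and CD11c, negative for CD64 and intermediate to high for MHC class II. Hearts were digested with the transcription inhibitor flavopiridol. CreER and YFP sit at the Cx3cr1 locus, so the reporter mice carry 1 altered copy of that gene, and labelling depends on activity of Cx3cr1. How many animals were pooled is not stated, so no value here has a replicate error. No test was run, and each 95% interval reflects the number of UMIs or cells counted and nothing else.

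Fcrls codes for a scavenger receptor-like protein with immunoglobulin domains, and in mice it is best known from microglia, the macrophages of the brain. Olfml3, a secreted olfactomedin-domain protein, is also known from microglia. Cxcr4 is the receptor for the chemokine Cxcl12, which holds cells in tissues and guides their migration, and Rgs1 shortens the signalling of such receptors by speeding up GTP hydrolysis on their G proteins. Rapsn codes for rapsyn, which gathers acetylcholine receptors at the junction of nerve and muscle.

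The promoters of the marker genes are shown because the members were chosen by joint detection of these transcripts. RefSeq entries on GRCm38.p6, covering 250 bases before to 50 after the start of the gene, matched 3 of the 5 markers, Fcrls at chr3:87263475-87263774, Olfml3 at chr3:103737952-103738251 and Cxcr4 at chr1:128592250-128592549, all on the minus strand and written 5′ to 3′. Rapsn and Rgs1 are named only. The starts are those of the RefSeq entries. For Fcrls the GENCODE gene span given below ends at 87263738 on the minus strand. Most of that window, with the marked letters, thus lies inside this span. Capitals mark the letters GAGGAA, the core bound by PU.1 and other ETS factors of myeloid cells.
Fcrls: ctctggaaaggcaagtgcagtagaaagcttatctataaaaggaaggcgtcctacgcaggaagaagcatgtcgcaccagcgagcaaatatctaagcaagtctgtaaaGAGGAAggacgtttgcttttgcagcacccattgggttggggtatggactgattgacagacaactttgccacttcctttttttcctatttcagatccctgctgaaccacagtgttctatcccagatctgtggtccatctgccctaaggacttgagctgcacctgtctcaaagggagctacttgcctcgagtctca
Olfml3: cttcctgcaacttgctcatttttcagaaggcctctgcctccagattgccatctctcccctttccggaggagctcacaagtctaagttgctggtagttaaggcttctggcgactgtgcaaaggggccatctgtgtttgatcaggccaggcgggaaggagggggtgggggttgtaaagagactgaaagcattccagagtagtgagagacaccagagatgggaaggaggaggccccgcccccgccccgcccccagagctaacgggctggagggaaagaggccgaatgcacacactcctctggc
Cxcr4: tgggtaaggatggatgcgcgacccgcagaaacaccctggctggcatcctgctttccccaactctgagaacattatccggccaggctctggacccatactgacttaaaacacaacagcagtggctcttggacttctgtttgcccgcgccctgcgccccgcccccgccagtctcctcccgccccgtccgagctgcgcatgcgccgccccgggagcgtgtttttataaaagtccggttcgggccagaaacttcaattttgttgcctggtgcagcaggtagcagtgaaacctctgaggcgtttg

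GAGGAA was present once in the Fcrls window (1 match) and had 0 matches in the windows of Olfml3 and Cxcr4. Over both strands, 28.3% of 32851 RefSeq promoters of the same length hold it. CAGAC, the SMAD box, had 2 matches in Fcrls and 0 in Olfml3 and Cxcr4, beside 49.6% of all promoters. CANNTG, the E-box, had 3 matches in Fcrls, 1 in Olfml3 and 0 in Cxcr4, beside 72.3% of all promoters. ACGTG, the core of hypoxia response elements, had 0 matches in the 3 windows and was present in 19.6% of all promoters. No motif searched was shared by all 3 windows, and a match is a description of letters only.

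The filtered day 11 cells had a median of 8246 UMIs, against 10834 in the steady state library and 7193 in the macrophage and DC library. The libraries held 45177529, 23711707 and 14388327 UMIs in that order. Barcodes shared between libraries numbered 7 to 11 for a pair, and 1 member shared its barcode with each of the other libraries. A pair of cell sets serves for comparison within the day 11 library. The first is all 4099 other cells with at least 40 UMIs of C1qa, C1qb and C1qc per 10000, called other C1q cells. The second is the 2483 of these that lie within the limits, which are compared after weighting to the members' depth in 10 strata. The second set matters because the limits remove cells with much Gpnmb, Saa3 or Arg1 from the members but leave them in the first set.

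The members were macrophages by every listed macrophage marker. RNA of all 10, among them Adgre1, Csf1r, Mertk and Fcgr1, was present, and 307 of 308 members reached the C1q level. C1qa was at 7604 CPM (UMIs of a gene per 1000000 UMIs) in members and 6818 CPM in other C1q cells. T or NK cell markers summed to 0.917 CPM in members and 2.85 CPM in other C1q cells, with Cd3e, Nkg7 and Klrb1c at 0 in members. Ms4a1, a B cell marker, was at 0 in members. Of the cDC2 list, 5 of 5 genes were present at 38.2 CPM in members and 46.1 CPM in other C1q cells.

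Fibroblast markers summed to nearly the same level, 35.4 CPM in members and 35.5 CPM in other C1q cells, with Pdgfra at 0 in members. At least 2 fibroblast genes were detected in 8.12% of members and 3.29% of other C1q cells. Cells ranked as doublet-like by Scrublet made up 7.79% of members (5.06 to 11.4) and 3.68% of other C1q cells (3.13 to 4.31). Members were also deeper, with a median of 8791 UMIs per cell, against 8174 in other C1q cells and 7159 within the limits. Without the doublet-like cells 6.31% of day 11 cells were members, and all 11 genes named below from the rule of at least 50 CPM were still past 1.5-fold in the same direction.

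The 5 marker genes chose the members, so their levels are a description. Fcrls (ENSMUSG00000015852; mm10 chr3:87250758-87263738) was at 1150 CPM in members and 707 CPM in other C1q cells. Olfml3 (ENSMUSG00000027848; chr3:103722222-103738001) was at 203 and 110 CPM, and Rapsn (ENSMUSG00000002104; chr2:91035620-91045729) at 101 and 29.5 CPM. Cxcr4 (ENSMUSG00000045382; chr1:128588199-128592293) and Rgs1 (ENSMUSG00000026358; chr1:144242296-144249242) were each at 134 CPM in members, against 67.1 and 51.5 CPM in other C1q cells. Rapsn thus had the highest ratio, 3.42, and Fcrls the lowest, 1.63. All 5 are protein-coding genes, and Rapsn alone lies on the plus strand.

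Nearly every member, 99.0%, had a UMI of Fcrls, against 84.5% of other C1q cells. Rapsn was the marker missing most often, in 89 members, followed by Rgs1 in 77, Cxcr4 in 62, Olfml3 in 29 and Fcrls in 3, while 48 members had all 5. A member carried 4 to 75 UMIs of the set, with a median of 16. With every cell thinned to 3000 UMIs and membership kept from the full counts, Rapsn was detected in 34.2% of members and 7.59% of other C1q cells. Rgs1 was detected in 35.9 and 11.5%. These shares also follow in part from the rule. Cells with low C1q served as a background, which holds free RNA and any expression of their own. Among 267 of them, with a median of 8624 UMIs, 7.87% had a UMI of Rapsn and 16.9% one of Olfml3. The shares were 19.8 and 45.7% in other C1q cells. Those of members, 71.1 and 90.6%, are high by the rule and cannot be weighed against this background. Of the 12 that carried endothelial markers, 2 had a UMI of Olfml3, 2 of Rapsn and 2 of Cxcr4.

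Cells on both sides of the threshold are described by the number of markers detected. Within the limits, 608 cells had 3 markers, 260 had 4 and 48 had all 5, and the median depth was 7870, 8643 and 9984 UMIs in the same order. Cells just outside, with 3 markers, had Fcrls at 962 CPM, Olfml3 at 155, Rapsn at 49.5, Cxcr4 at 97.2 and Rgs1 at 75.3 CPM. Cells just inside, with 4, had Fcrls at 1132 CPM, Olfml3 at 204, Rapsn at 97.7, Cxcr4 at 129 and Rgs1 at 125 CPM. Higher marker levels with more markers follow from the grouping. They cannot show whether the cells form a continuous range or a separate set.

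Pairs of markers were found together to different degrees. In thinned C1q cells within the limits, members included, Olfml3 was detected in 25.8% of cells with Fcrls (23.9 to 27.8) and 12.3% of cells without it (10.0 to 14.8). Cxcr4 was detected in 20.5% of cells with Rgs1 (16.3 to 25.1) and 14.7% of cells without it (13.3 to 16.2). Fcrls and Rgs1 showed no such relation, with Rgs1 in 12.2% of cells with Fcrls (10.8 to 13.7) and 13.5% of cells without it (11.1 to 16.1). In every other pair, each marker was detected in a larger share of cells with its partner than without it, with overlapping intervals in some. Fcrls and Rgs1 were the only pair without this. Of all the thinned C1q cells within the limits, 49 had 4 or 5 markers after thinning and 485 had 0.

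The neighbourhood of the members was mixed. In 30 principal components computed without the genes of the rule, 13.3% of the 20 nearest cells of a member were members, against 7.33% around other C1q cells. Members make up 6.59% of all cells. No member had more than 45% members around it, and 11.4% of members had none. Members were more frequent around members than around other cells, without filling any neighbourhood.

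Cells that meet the rule were most frequent at day 11 in both raw and thinned counts. In the steady state library 46 of 1767 cells met it, 2.60% (1.91 to 3.46), and these were very deep cells, with a median of 21999 UMIs. In the macrophage and DC library 0 of 1767 cells met it, which allows a share of up to 0.170%. With each cell thinned to 3000 UMIs the rule was met by 1.63% of day 11 cells (75 of 4589; 1.29 to 2.04), 0.0566% of steady state cells (1 of 1767; 0.0014 to 0.315) and 0 of 1595 cells of the macrophage and DC library. Requiring 3 markers gave 9.44, 0.623 and 0.376% of thinned cells in the same order. Markers and limits were both read on the thinned counts here, so cells outside a limit at full depth could meet the rule. With the limits and the C1q level taken from the full counts, 49 day 11 C1q cells had at least 4 markers after thinning. Infarction and steady state are 1 library each, so the state and the library cannot be told apart.

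**Figure D1:**
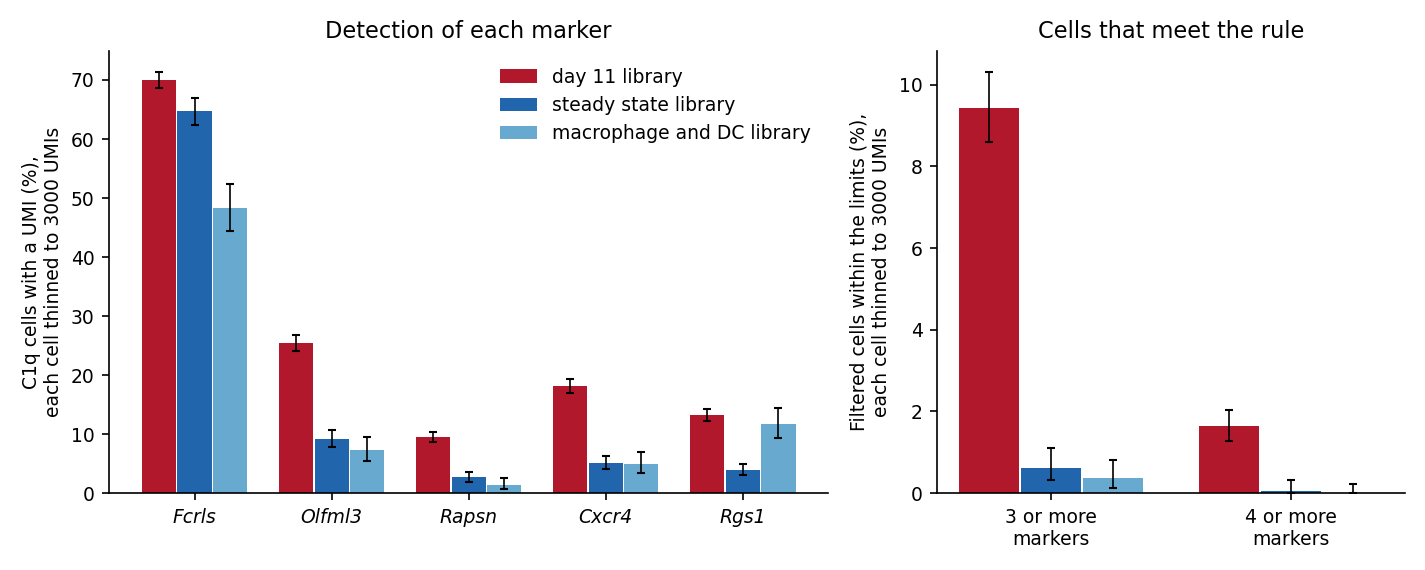
Left, the share of C1q cells with a UMI of each marker gene, in percent, after thinning every cell to 3000 UMIs. Right, the share of filtered cells that lay within the limits and had at least 3 or at least 4 markers, with limits and markers read on the thinned counts. Red bars are the day 11 library, dark blue the steady state library and light blue the macrophage and DC library, with exact 95% intervals of counting. Olfml3, Rapsn and Cxcr4 were highest at day 11, Fcrls was detected in 70.0% of cells at day 11 and 64.8% in the steady state library, and Rgs1 was close in the day 11 and the macrophage and DC libraries.

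Olfml3, Rapsn and Cxcr4 were each detected more often at day 11 than in both other libraries. In thinned C1q cells Olfml3 was detected in 25.5% at day 11, against 9.20% in the steady state library and 7.24% in the macrophage and DC library. Rapsn was detected in 9.44, 2.66 and 1.39% and Cxcr4 in 18.1, 5.15 and 4.93% in the same order. Fcrls was detected in 70.0% of C1q cells at day 11, against 64.8% in the steady state library and 48.4% in that of macrophages and DCs. Its level was 741 CPM, 471 CPM and 409 CPM in the same order. Rgs1 went a different way. It was detected in 13.2% at day 11 (12.2 to 14.3) and 3.94% at steady state (3.07 to 4.96), but in 11.7% (9.34 to 14.4) of C1q cells of the macrophage and DC library, where its level of 58.4 CPM was that of day 11, 57.8 CPM. That library differs from the others in genotype and gate.

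The marker set was not confined to cells within the limits. At least 4 markers were found in 750 day 11 cells, of which 442 lay outside a limit. Of the 750 cells, 250 had 3 or more UMIs of Gpnmb, a lysosomal glycoprotein of lipid-laden macrophages, 152 had 4 or more genes of the Cxcr3 set, 120 had Arg1, the arginase of repair macrophages, and 24 had 3 or more UMIs of Saa3, an acute-phase protein. After thinning, at least 4 markers were detected in 1.80% of C1q cells within the limits (1.33 to 2.37) and in 4.68% of Gpnmb cells (3.15 to 6.65). The Arg1 cells were lowest, at 0.564% (0.116 to 1.64). Before thinning the shares were 11.0, 39.5 and 21.6% in the same order, with median depths of 7329, 10594 and 12112 UMIs.

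**Figure D2:**
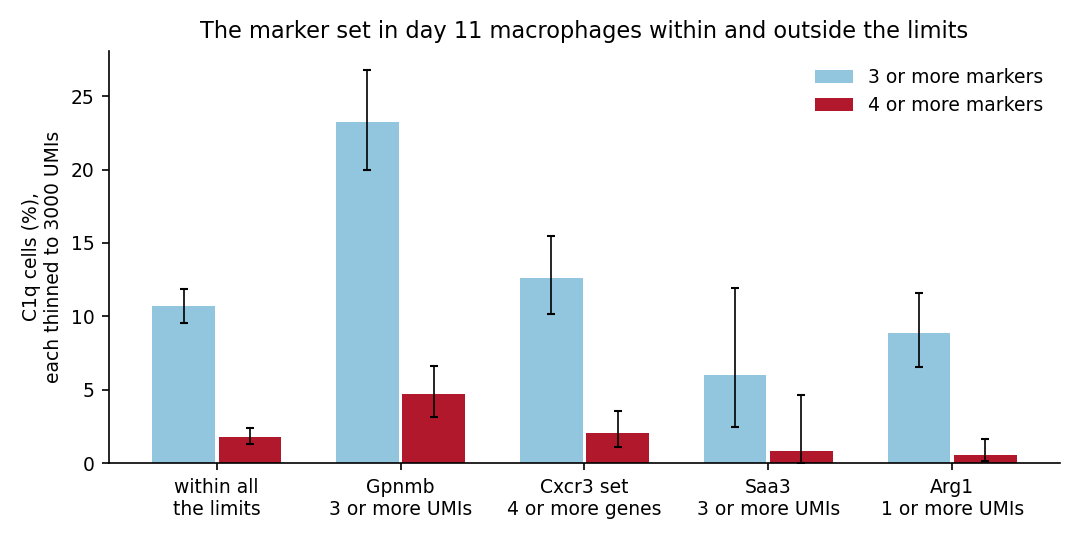
Share of C1q cells of the day 11 library, in percent, with at least 3 (light blue) or at least 4 (red) of the 5 markers after thinning to 3000 UMIs, for cells within all the limits and for cells outside each limit. Error bars are exact 95% intervals of counting. The set was most frequent in Gpnmb cells, at 4.68% for 4 markers, against 1.80% within the limits.

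Outside the genes of the rule, members differed little from other C1q cells. Of 5090 genes with at least 20 CPM in either set, 11 (0.216%) were at least 1.5-fold higher in members and 25 (0.491%) at least 1.5-fold lower. The median log2 ratio was 0.0060, and 94.2% of genes lay within 1.25-fold. Against C1q cells within the limits, weighted to the members' depth, 46 genes (0.904%) were higher and 89 (1.75%) lower, and 87.6% lay within 1.25-fold. Past 1.5-fold is a size and not a test. The same cells and library gave the rule and these ratios, so nothing is read from the number of genes.

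Of genes with at least 50 CPM, Ccl4 and Parp1 were higher in members by both comparisons, and 9 genes were lower. Ccl4, a chemokine that attracts leukocytes, was at 220 CPM in members and 137 CPM in other C1q cells, a ratio of 1.61 (1.49 to 1.74), and at 110 CPM in the depth-weighted cells within the limits, a ratio of 2.01. After thinning, 29.6% of members and 22.99% of other C1q cells had a UMI of Ccl4. The highest single member held 38 of its 721 UMIs, and without the highest cell on each side the ratio was 1.56. Ccl4 was at 206 CPM in cells with 4 or more genes of the Cxcr3 set, near its level in members. Its log2 ratio came under 1.5-fold when the rule asked for 3 markers (0.22) or for all 5 (0.53). The ratio for Parp1, an enzyme of DNA repair, rested on 1 cell. That cell held 143 of the 344 UMIs of all members, and without it the levels were 61.4 CPM in members and 54.4 CPM in other C1q cells.

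The remaining higher genes were less abundant and are named after their values were seen. Single cells carried much of Cxcl9, with 63 of 74 UMIs in 1 member, and of Chil3, with 36 of 87. Fcrl1, another gene of the Fc receptor-like family, was at 22.9 CPM in members and 11.2 CPM in other C1q cells, a ratio of 2.04 (1.58 to 2.62), with at most 6 of its 75 UMIs in 1 cell. Fcrl1 resembles Fcrls in sequence, and whether counting could assign reads between them was not tested. Plxnc1, a semaphorin receptor, was at 31.8 and 19.7 CPM, Ncapg2, a condensin subunit, at 22.9 and 13.3 CPM, and Galc, the lysosomal galactosylceramidase, at 39.4 and 26.3 CPM. Acp6, 2900060B14Rik and 1110034G24Rik complete the 11.

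The 9 lower genes included secreted proteins, matrix proteins and surface receptors. Fn1, the matrix protein fibronectin, was at 80.4 CPM in members and 217 CPM in other C1q cells, 2.70-fold lower (2.39 to 3.07). Its ratio to the depth-weighted cells within the limits was 0.667, but without depth weights its log2 ratio to them was −0.22, under 1.5-fold. Fn1 was at 1141 CPM in Saa3 cells and 783 CPM in Arg1 cells, which the limits keep out of the members. Retnla, a secreted protein of type 2 responses, was at 21.1 and 64.1 CPM, 3.04-fold lower (2.39 to 3.92), with a UMI in 5.84% of members and 7.49% of other C1q cells. One other C1q cell held 322 of the 2521 Retnla UMIs. The difference in Retnla depended on the rule, with a log2 ratio of −0.04 when 3 markers were enough and −0.03 with membership on thinned cells.

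Ccl9 and S100a4 were the most abundant of the lower genes apart from Spp1. Ccl9, a chemokine for Ccr1, was at 433 CPM in members, against 664 CPM in other C1q cells and 816 CPM in the depth-weighted cells within the limits, 1.53-fold (1.45 to 1.62) and 1.88-fold lower. Thinned members had a UMI of Ccl9 in 48.7% of cells and other C1q cells in 63.6%. S100a4, a calcium-binding protein of monocytes and motile cells, was at 259 CPM in members and 413 CPM in other C1q cells. Its level within the limits was 434 CPM with depth weights and 356 CPM without. Gda, guanine deaminase, was at 35.4 CPM in members and 64.8 CPM in other C1q cells. C4b, a complement component, was at 39.7 and 66.9 CPM, the lectin Clec4b1 at 81.3 and 125 CPM and the activating receptor Lilra5 at 55.6 and 84.5 CPM. Against cells within the limits without depth weights, the log2 ratios of S100a4 (−0.46) and C4b (−0.54) were under 1.5-fold. Low levels of Ccl9, C4b, Clec4b1 and Lilra5 were not particular to members. Gpnmb cells had Ccl9 at 391 CPM, Clec4b1 at 51.9 CPM and Lilra5 at 30.01 CPM, all below the members' levels. Cells with 4 or more genes of the Cxcr3 set had C4b at 30.6 CPM and Ccl9 at 459 CPM. S100a4 and Gda were lower in members than in the cells outside each limit. The nearest levels were 342 CPM of S100a4 in Gpnmb cells and 42.1 CPM of Gda in cells with the Cxcr3 set.

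Spp1, the secreted matrix protein osteopontin, had no fixed direction. It was at 391 CPM in members and 911 CPM in other C1q cells, but a larger share of members, 76.6%, than of other C1q cells, 70.6%, had a UMI. One cell within the limits held 2317 of its UMIs. Without the highest cell on each side the ratio to cells within the limits, not weighted for depth, was 1.22.

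**Figure D3:**
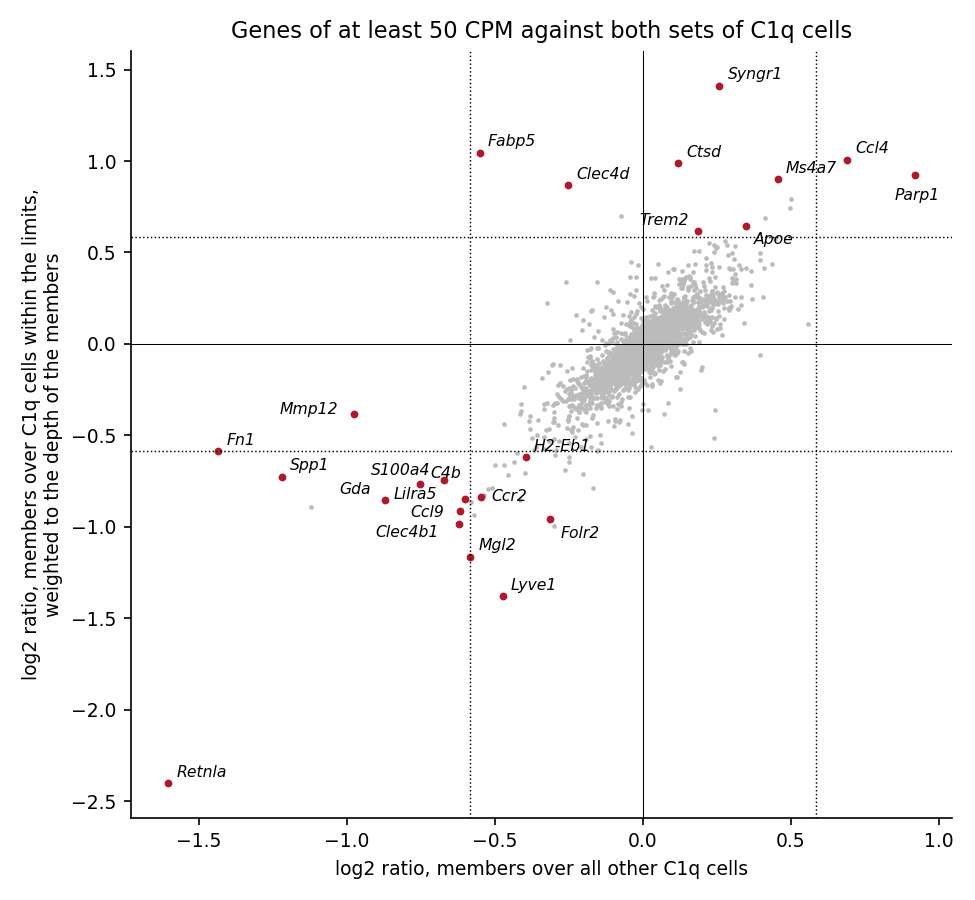
Each point is a gene outside the rule with at least 50 CPM in members or other C1q cells. The x axis is the log2 ratio of members over all other C1q cells and the y axis the log2 ratio over depth-weighted C1q cells within the limits. Dotted lines mark 1.5-fold and red points are labelled genes. Most genes lie near 0 on both axes, Ccl4 is high on both, and Fabp5 is on opposite sides, with ratios of 0.682 and 2.07.

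For genes of lipid handling the comparisons disagreed. Fabp5, a fatty acid carrier, was at 244 CPM in members, below the 358 CPM of other C1q cells (ratio 0.682) and above the 118 CPM of depth-weighted cells within the limits (ratio 2.07). Syngr1 had ratios of 1.20 and 2.66, and Ctsd, a lysosomal protease, of 1.09 and 1.98. Apoe, the lipid carrier apolipoprotein E, was at 51807 CPM in members, 40690 CPM in other C1q cells and 33097 CPM within the limits. Trem2, a lipid receptor, was at 999, 878 and 652 CPM, and Ms4a7, a membrane protein of monocyte-derived macrophages, at 2513, 1833 and 1346 CPM. Apoe, Trem2, Ctsd, Syngr1 and Ms4a7 were thus higher in members than in both sets, past 1.5-fold only over cells within the limits. Gpnmb cells had more Trem2 than members, at 1432 CPM with 0 or 1 markers after thinning and 1691 CPM with 4 or 5.

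Of the 22 lipid-associated genes, 0 were past 1.5-fold higher and 2 lower against other C1q cells, with a median log2 ratio of −0.05, while 5 were higher and 1 lower against cells within the limits, with a median of 0.32. Mmp12, a protease, was at 45.8 and 90.1 CPM in members and other C1q cells. Gpnmb, which the limits cap at 2 UMIs a member, was at 44.0 CPM in members, 25.4 CPM in unweighted C1q cells within the limits and 831 CPM in Gpnmb cells.

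MHC class II genes, which present peptides to CD4+ T cells, were lower in members as a group. All 7 measured genes had a log2 ratio below 0, with a median of −0.32 against other C1q cells and −0.53 against cells within the limits. None was past 1.5-fold in the first comparison and 2 were in the second. H2-Ab1 was at 6774 CPM in members and 8449 CPM in other C1q cells, Cd74 at 19045 and 24486 CPM, H2-Eb1 at 5046 and 6640 CPM, and the transcriptional activator Ciita at 20.8 and 29.6 CPM. Members spread widely, with class II UMIs per 10000 at 11.3 in the lowest cell, 34.1 at the lower quartile, 233 at the median, 635 at the upper quartile and 1710 in the highest. The median was 387 in other C1q cells and 559 within the limits. Members with high and with low class II RNA were both common. Low class II RNA was not particular to members. In Gpnmb cells the class II list was at 23027 CPM with 0 or 1 markers after thinning and 13764 CPM with 4 or 5. It was at 27539 CPM in members without Rgs1, the lowest of the member combinations.

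This spread went with which marker was missing. The 77 members without Rgs1 had a median of 40.9 class II UMIs per 10000, and those without Cxcr4 had 361 and those without Rapsn 317. The members without Rgs1 also had the most Apoe among the larger combinations, 62689 CPM, against 42922 CPM in those without Cxcr4. The chemokine Ccl8 was at 560 CPM in members without Rgs1 and 195 CPM in those without Rapsn. The 3 members without Fcrls had Ccl4 at 2703 CPM, too few cells to read.

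Genes of early monocyte-derived cells were mixed. Of 11 measured, 8 had a log2 ratio below 0 and 3 above 0 against other C1q cells. Past 1.5-fold, 4 were lower, Fn1, S100a4, Clec4e and Thbs1, and 1 was higher, Chil3, with a median log2 ratio of −0.47 against other C1q cells and −0.38 against cells within the limits. Ccr2, the receptor that brings monocytes to injured tissue, was at 168 CPM in members, against 246 CPM in other C1q cells and 300 CPM within the limits. S100a6 was at 529 CPM in members and 733 CPM in other C1q cells. Plac8 and Ifitm6 had ratios of 1.05 and 1.22 to other C1q cells, and Thbs1 and Lgals3, with ratios of 0.639 and 0.834 to those cells, had ratios of 1.15 and 1.27 to cells within the limits. Of 13 matrix genes, 4 were lower and 0 higher, with a median of −0.28, but against cells within the limits the median was −0.05.

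Genes of resident cardiac macrophages passed 1.5-fold only against cells within the limits. Of 15 measured, 0 were past 1.5-fold against other C1q cells (median −0.01), and 6 were lower against cells within the limits (median −0.36). Lyve1, a hyaluronan receptor, was at 42.5 CPM in members, 59.0 CPM in other C1q cells and 110 CPM within the limits. Folr2, a folate receptor, was at 232, 288 and 450 CPM, and Cbr2 at 148, 182 and 294 CPM. Not every gene of the list was lower in members, since 6 of the 15 were above 0 against other C1q cells and 3 against cells within the limits. Igf1, a growth factor, was at 336 CPM in members and 284 CPM in other C1q cells, a ratio of 1.18, and had a ratio of 1.45 to cells within the limits.

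Among the 17 measured chemokines, Ccl4 and Cxcl9 were past 1.5-fold higher and Ccl9 lower against other C1q cells. Ccl3, a chemokine closely related to Ccl4, was at 103 CPM in members and 72.9 CPM in other C1q cells (ratio 1.41; 1.26 to 1.58). Ccl12, a chemokine for Ccr2, was at 340 and 231 CPM, but at a ratio of 1.08 to cells within the limits. Ccl5 was at 69.4 and 49.0 CPM, with 65 of its 227 member UMIs in 1 cell. Ccl6 was at 509 CPM in members, against 699 CPM in other C1q cells and 837 CPM within the limits. Ccl3 and Ccl4 were higher in members by both comparisons and Ccl6 and Ccl9 lower, and all 4 belong to the chemokine gene cluster of mouse chromosome 11.

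Genes connected with the markers themselves moved little. Of 16 measured regulators of G protein signalling, 0 were past 1.5-fold, and Rgs2 was at 241 CPM in members and 216 CPM in other C1q cells and Rgs10 at 900 and 789 CPM. Of 9 measured partners of Cxcr4, 0 were past 1.5-fold. Among 11 chemoattractant receptors Cx3cr1 had the highest ratio, 1.29 (295 and 228 CPM). Of 11 genes of the neuromuscular junction that act with rapsyn, 0 reached 20 CPM. Musk, Dok7, Chrnd, Chrng and Chrna1 had 0 UMIs in members.

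Genes best known from microglia were slightly higher as a group, with 16 of 22 measured above 0 and a median log2 ratio of 0.13 against other C1q cells. None was past 1.5-fold there, and against cells within the limits 1 was higher and 1 lower. Gpr34 was at 128 CPM in members and 103 CPM in other C1q cells, P2ry13 at 25.7 and 18.4 CPM, and P2ry12 at 48.6 and 43.6 CPM. Tmem119, a microglial gene that the rule uses in its Cxcr3 set, was at 86.8 and 72.6 CPM. Immediate early genes, which respond within minutes to stimulation or handling, had 16 of 18 measured above 0 and a median of 0.19, with Fos at 889 and 749 CPM. TGF-beta signalling genes had a median of 0.13, with the receptor Tgfbr1 at 134 and 115 CPM. Of 8 Fc receptor genes 1, Fcrl1, was past 1.5-fold.

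Cell cycle genes had a median log2 ratio of 0.03 against other C1q cells and −0.56 against cells within the limits, where all 13 measured were below 0. With at least 3 of 26 listed genes as the mark of a cycling cell, 4.93% of thinned members (2.79 to 8.01) were cycling, against 6.60% of other C1q cells (5.85 to 7.41) and 7.43% within the limits (6.42 to 8.55). These intervals overlap. Before thinning the shares were 15.3, 17.6 and 16.1%. Interferon-stimulated genes had a median of −0.16 against other C1q cells and −0.40 against cells within the limits, with Isg15 at 63.3 CPM in members, 77.7 CPM in other C1q cells and 96.3 CPM within the limits.

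In most of the other lists no gene passed 1.5-fold against other C1q cells. Against other C1q cells, 0 genes passed 1.5-fold among 24 lysosomal genes (median log2 ratio 0.06), 10 of iron and heme handling (0.08), 19 macrophage transcription factors (0.10), 13 receptors for dying cells (0.10) and 6 of purine sensing (0.11). The same held for 21 inhibitory and paired receptors (0.06), 6 Ms4a genes (0.06), 17 of NF-kB feedback (0.00049), 8 growth factors (0.10), 11 heat shock genes (−0.02), 11 of MHC class I presentation (−0.05), 11 chemoattractant receptors (0.05), 9 partners of Cxcr4 (−0.05) and 16 of G protein regulation (0.01). Glycolysis and hypoxia genes had 14 of 16 below 0, with a median of −0.17 and 0 past 1.5-fold, and Pkm, the last kinase of glycolysis, was at 347 CPM in members and 410 CPM in other C1q cells. Among 7 cytokines (0.06) Il1rn was past 1.5-fold lower, at 19.3 and 32.6 CPM, and among 6 complement genes, of which 4 were below 0 (−0.21), C4b was. Cfp, which codes for properdin, was at 173 and 234 CPM. Against cells within the limits, genes past 1.5-fold were found in part of these lists. Of 6 Ms4a genes 2 were higher and 1 lower. Of 21 inhibitory and paired receptors 2 were higher, and of 6 complement genes 2 were lower. The lysosomal genes and the receptors for dying cells each had 1 higher. Iron and heme handling, MHC class I presentation and the chemoattractant receptors each had 1 lower. The other lists given here had 0.

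**Figure D4:**
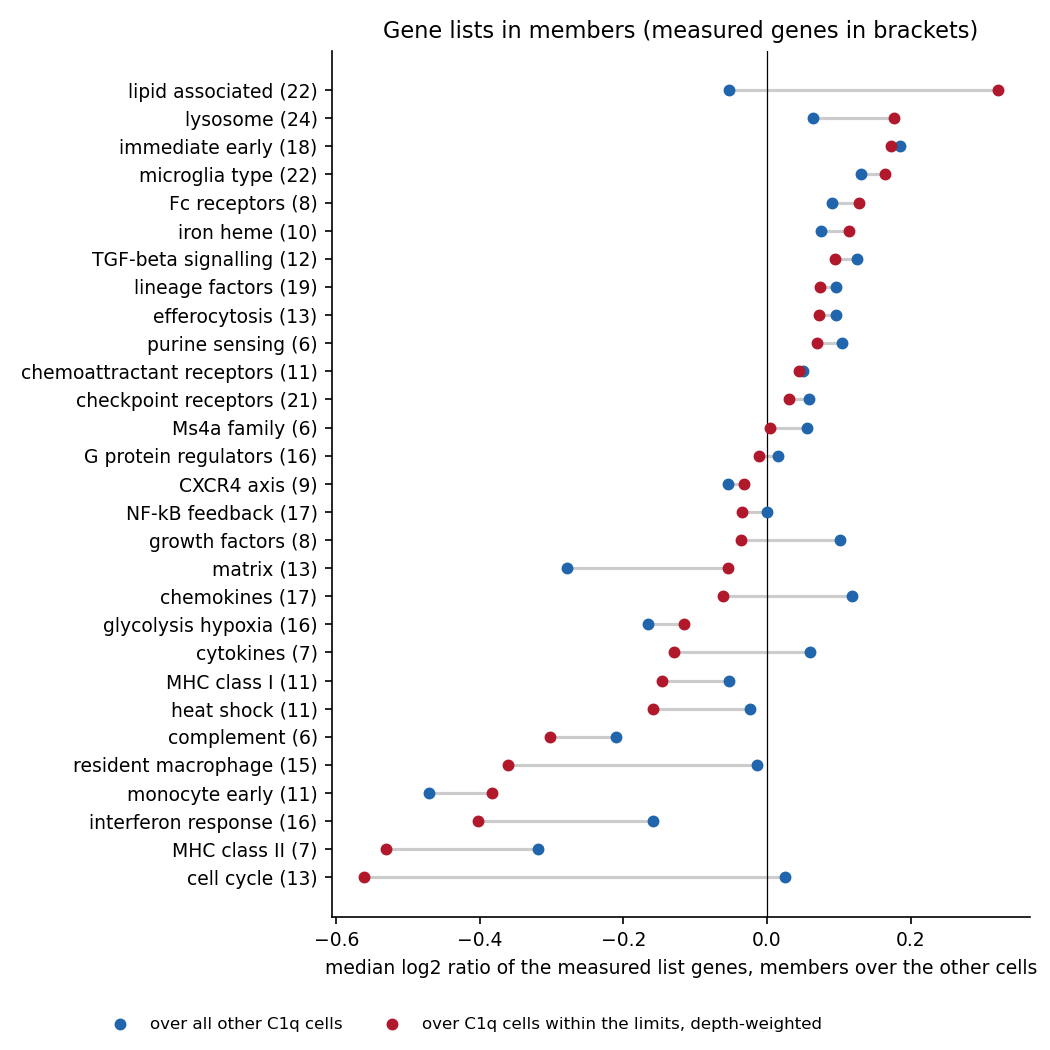
Median log2 ratio of the measured genes of each list, members over all other C1q cells (blue) and over depth-weighted C1q cells within the limits (red); the number of measured genes is in brackets. The medians of the MHC class II and early monocyte lists are below 0 for both, and the lipid-associated and cell cycle lists change sign, at −0.05 and 0.32 and at 0.03 and −0.56.

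The number of markers detected was graded with several genes outside the rule. C1q cells within the limits were thinned to 3000 UMIs and sorted by the number of markers then detected, 485 cells with 0, 1222 with 1, 728 with 2, 242 with 3 and 49 with 4 or 5. Their median depth before thinning was 7729 UMIs with 0 markers and 6945 UMIs with 4 or 5, so the cells with more markers were not deeper. Apoe was at 23386, 34733, 43500, 56587 and 63815 CPM, in the order of marker number. Ms4a7 was at 1001, 1379, 2007, 2936 and 3247 CPM and Trem2 at 472, 648, 865, 1095 and 1188 CPM in that order. All 3 genes were higher at each step.

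Other genes were lower with more markers. Ccl9 was at 860, 773, 539, 365 and 238 CPM and S100a4 at 479, 355, 291, 200 and 92.4 CPM, in the order of marker number. Ccr2 was at 493 CPM with 0 markers and 132 CPM with 4 or 5, and Mgl2, a lectin, at 367 and 55.4 CPM. The class II list was at 86538 CPM with 0 markers and between 39132 and 53203 CPM in cells with any marker. Csf1r, the growth factor receptor of macrophages, was at 822 CPM with 0 markers and between 978 and 1006 CPM with any. Ccl8 and Spp1 had no order.

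**Figure D5:**
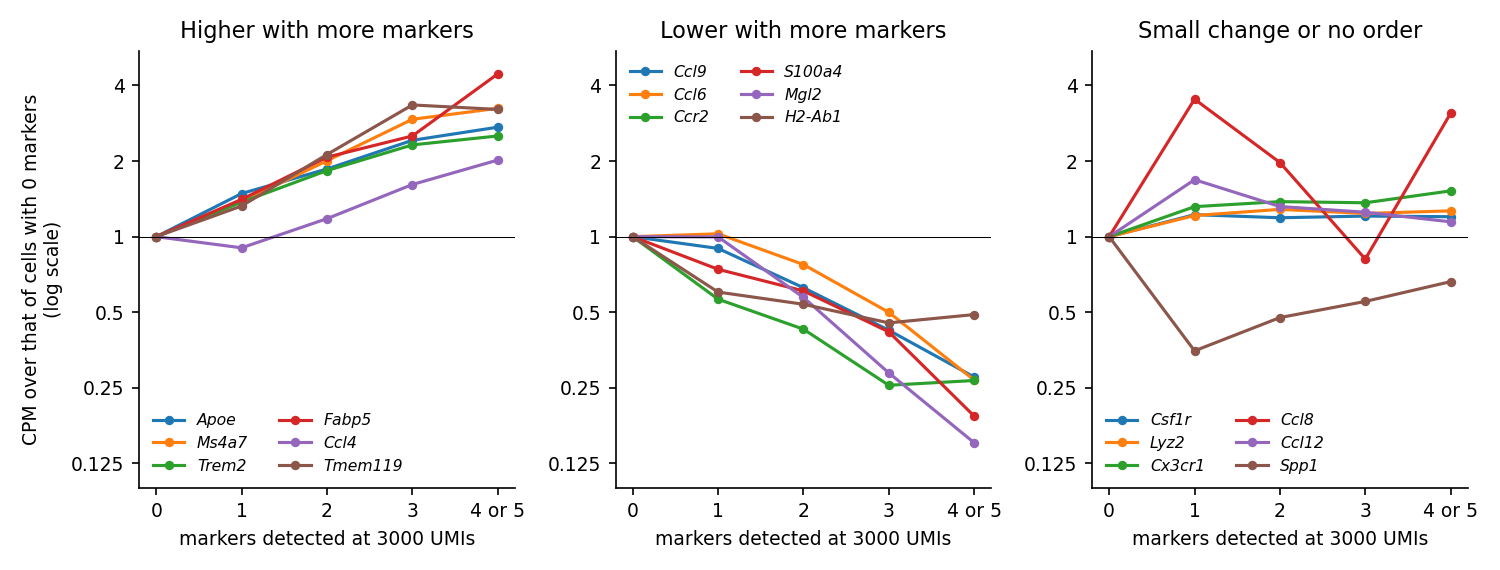
CPM of each gene over its CPM in cells with 0 markers, on a log axis, against the number of markers detected after thinning to 3000 UMIs, for C1q cells within the limits of the day 11 library. The panels show genes that were higher, genes that were lower and genes with a small change or no order. Apoe, at 23386 CPM with 0 markers and 63815 CPM with 4 or 5, was higher at each step, and Ccl9 was lower at each step.

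The same grading was found in Gpnmb cells for part of the genes. In day 11 cells with at least 3 UMIs of Gpnmb, Ms4a7 was at 2474 CPM with 0 or 1 markers (259 cells), 3316 with 2 (217), 3578 with 3 (115) and 4209 CPM with 4 or 5 (29). Apoe was at 55198 and 76674 CPM and Ccl9 at 467 and 217 CPM at the ends of this range. In the steady state library Apoe was between 18785 and 21841 CPM at every marker number. Ms4a7 there was at 327 CPM with 0 markers (452 cells), 408 with 1 (973) and 486 with 2 (199), and at 704 CPM in the 11 cells with 3 or more. Ccl9 was at 1121, 1064, 918 and 680 CPM in the same order. Ms4a7 was higher and Ccl9 lower with more markers in each of these 3 sets of cells, and Apoe in the day 11 cells only, though the difference between the libraries was not tested.

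The 46 steady state cells that met the rule shared part of the members' features. Set against other steady state C1q cells weighted to their depth, the class II list had a median log2 ratio of 0.0058. Apoe had a ratio of 0.918, Trem2 of 0.946 and Ctsd of 0.921. Ccl12, higher in members than in other C1q cells, had a ratio of 0.718. Other genes went in the members' direction, with ratios of 1.40 for Ccl3, 0.727 for Ccr2, 0.803 for Ccl6 and 0.663 for Cfp. The early monocyte list had a median log2 ratio of −0.20 and the interferon list of −0.17, below 0 as in members. Of the genes named above, Ccl4 and Parp1 had ratios of 1.08 and 1.16, in the members' direction but not past 1.5-fold. Of the 9 lower genes 5 were also lower there and 1, Fn1, was past 1.5-fold, at 17.1 CPM in the 46 cells and 25.9 CPM in the others.

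The reporter transcripts separated members little. TdTomato RNA, which marks cells descended from Cre-labelled Cx3cr1 cells, was detected in 7 of 308 members, 2.27% (0.919 to 4.63), and in 61 of 4099 other C1q cells, 1.49% (1.14 to 1.91). After thinning the shares were 0.329 and 0.322%. EYFP RNA was detected in 37.0% of members (31.6 to 42.7) and 24.8% of other C1q cells (23.5 to 26.2), but after thinning in 11.5% (8.15 to 15.6) and 9.82% (8.92 to 10.8). Cx3cr1, at whose locus EYFP sits, was the chemoattractant receptor with the ratio of 1.29 given above. TdTomato RNA was scarce in both sets, and no origin of the members can be read from it at this depth.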

How the data were processed

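The deposited values are counts, that is UMIs per gene and cell barcode, made with Cell Ranger and STAR on mm10, per the submitters' processing notes. The versions of these tools are not stated in the sources, and the rule that called the barcodes is not stated. Shares refer to the deposited barcodes only.

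Cells with at least 500 genes and at most 10% mitochondrial UMIs were kept, which removed 24, 39 and 13 barcodes of the day 11, steady state, and macrophage and DC libraries. Doublets were kept. Scrublet, run in scanpy 1.11.5, served as an alternative that removed the 175 highest scores of day 11, since its automatic threshold marked only 2 of 4673 cells. UMIs were summed over cells and divided by the sum without reporter entries to give CPM. For ratios, intervals are exact conditional binomial 95% intervals, and for shares exact Clopper-Pearson ones. These treat UMIs as independent and leave out differences between cells. Where a share was to be compared across depths, cells of at least 3000 UMIs were thinned to 3000, which left out 84, 0 and 172 cells in the same order of libraries. A share of 0 is given with the limit of 3 counts.

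Genes were named by a rule: at least 50 CPM, and at least 1.5-fold different in the same direction from all other C1q cells and from depth-weighted C1q cells within the limits. Genes of the 13-gene rule, mitochondrial, ribosomal protein, haemoglobin, immunoglobulin, reporter and unnamed genes were left out. So were genes of chromosome Y, Xist, Tsix and genes with duplicated symbols, while other genes of chromosome X were kept. A further 30 gene lists were described by their genes of at least 20 CPM. The members, the markers and the lists were chosen with earlier results of these data known. Gene positions are from GENCODE vM21 on mm10 and promoters from RefSeq on GRCm38.p6. The ratio procedure was tested on simulated data. Python 3.11.15, numpy 2.4.6, scipy 1.17.1 and pandas 2.3.3 were used. Some genes of the marker and gene lists are not reported here.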

Additional observations from a re-analysis of the deposited data

How the results depend on the processing

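No paired analysis was possible because each group is 1 library. The share of day 11 cells that meet the rule, 6.59%, depended on the rule's own settings. It was 19.6% with 3 markers, 1.03% with all 5, 1.63% with markers and limits read after thinning and 16.05% without limits. With 3 of 4 markers it was 10.1% without Olfml3, 15.2% without Rapsn, 12.4% without Cxcr4 and 14.4% without Rgs1. The steady state share was 0.0566% after thinning and 13.2% with 3 markers, and that of the macrophage and DC library 0.905% with 3 markers. The 11 higher and 25 lower genes became 300 and 275 with all 5 markers (48 cells), 215 and 401 with membership on thinned cells, 36 and 69 against unweighted cells within the limits, 46 and 89 with depth weights, 18 and 55 by per-cell means, 18 and 38 without doublet-like cells, 7 and 44 without the highest cell of each gene (chosen after seeing the data), 4898 and 906 with no minimum CPM, 2 and 5 at 100 CPM and 3 and 7 at 2-fold. Only 2 were higher with 3 markers, and 49 were lower against all remaining cells. The cause of these shifts was not tested, except that fewer genes or cells enter by construction in some. The lipid-associated median turned to 0.32 and the cell cycle median to −0.56 against depth-weighted cells within the limits. Of 128 values for the 11 named genes, 105 stayed past 1.5-fold in the direction reported, whatever their size, 23 came under 1.5-fold and 0 reversed. Part of the 105 could not have moved. The 11 values with no minimum CPM and the 7 at 100 CPM repeat the reported ratios. The 11 against depth-weighted cells within the limits belong to the rule that named the genes. Sizes did change, as for C4b, whose log2 ratio was −0.75 as reported and −3.34 with membership on thinned cells, and Parp1, 0.92 as reported and 2.46 with all 5 markers. The share of members among the neighbours was 12.5 to 14.1% over the alternatives run. The TdTomato difference between members and other C1q cells was 0.785 percentage points as reported, 0.0065 after thinning and 0.621 against cells within the limits.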
